A study of Homo sapiens with 9 samples.

Results

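Extracellular metalloproteases and their inhibitors were described here in the established human cell line MDA-MB-231, which comes from a breast carcinoma that lacks hormone receptors. The set held every protein-coding gene named MMP, ADAM, ADAMTS, ADAMTSL or TIMP with a number, which gave 71 of the 58219 genes in the files. It comprised 23 MMP, 20 ADAM, 19 ADAMTS, 5 ADAMTSL and 4 TIMP genes with 435 transcripts. RNA had been sequenced from 3 groups of 3 libraries. The shAPT1 cells carried a lentiviral short hairpin RNA against APT1, a thioesterase that takes palmitate off membrane proteins and is the product of LYPLA1, and were selected with puromycin. The APT1wt cells carried a lentiviral plasmid that overexpresses wild-type APT1. The control cells carried a lentiviral scramble RNA and were the only controls for both lines. Each line was a stable population in serum-containing medium. Separate cultures for the libraries of a group are not documented in the labels, so p-values here speak for the spread between these libraries, some or all of which could be technical.

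Matrix metalloproteases (MMPs) are zinc proteases that cut collagens, laminins, proteoglycans and many cell-surface and secreted proteins. Most are secreted as inactive proenzymes, while the membrane-type MMPs act at the cell surface. ADAMs are membrane-anchored relatives, of which the catalytically active ones release the outer parts of membrane proteins such as growth factor precursors, cytokine receptors and Notch. ADAMTS enzymes are secreted, bind the matrix and cut proteoglycans, procollagens and other matrix proteins, and ADAMTS-like (ADAMTSL) proteins share their accessory domains but have no protease domain. The tissue inhibitors of metalloproteases (TIMPs) block these enzymes. MDA-MB-231 cells are known as an invasive line that makes MMP14, MMP1 and MMP9.

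Promoter sequences from RefSeq (GRCh38.p14) were at hand for 44 of the 71 genes. AP-1, the FOS-JUN dimer, is a textbook regulator of inducible MMP genes, so its motif TGANTCA was searched on both strands in the 250 bases before each start. The motif reads the same in both directions apart from the middle base, and it stood in 4 of the 44 promoters (9.09%), against 6.57% of 35116 promoters of all genes. The 4 were those of MMP7, MMP10, MMP20 and ADAMTS12, and ADAMTS12 was the only one of them with enough reads for a test. Of the 24 tested genes with a promoter at hand, 1 thus held the motif. No promoter was at hand for MMP1, MMP3, MMP9 or ADAMTS1, so these were not searched. The sites of ADAMTS12, MMP10 and MMP7 are printed because they show the motif in an expressed gene beside its form in genes that were nearly silent here. All are on the minus strand, 5′ to 3′ in the sense of the gene, with the motif in capitals. Its first base lies 84 bases before the start of ADAMTS12 (chr5:33892057-33892085) and 67 bases before the starts of MMP10 (chr11:102780678-102780706) and MMP7 (chr11:102530797-102530825).
ADAMTS12: acactgtcagcTGAATCActcccctttta
MMP10: aaacacatgcaTGAATCAtactgttggtg
MMP7: aaacactcaaaTGAGTCAcctatttccac

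The promoter of TIMP3 is of another kind and is printed because TIMP3 was the TIMP gene with the largest change in both lines. Its 250 bases (chr22:32801455-32801704, plus strand, GRCh38.p14) held no TGANTCA, 26 CpG dinucleotides and 72.4% G and C. The median over all promoters was 11 CpG dinucleotides and 58% G and C, and 19.6% of promoters held at least as many CpG dinucleotides. The capitals mark 5 GC boxes, GGGCGG or its reverse CCGCCC, the motif bound by SP1-type factors. At least 1 GC box stood in 30 of the 44 promoters of the set and in 42.6% of all promoters, and 4.15% of all promoters held 5 or more. These matches describe the letters of the windows and say nothing of binding.
TIMP3: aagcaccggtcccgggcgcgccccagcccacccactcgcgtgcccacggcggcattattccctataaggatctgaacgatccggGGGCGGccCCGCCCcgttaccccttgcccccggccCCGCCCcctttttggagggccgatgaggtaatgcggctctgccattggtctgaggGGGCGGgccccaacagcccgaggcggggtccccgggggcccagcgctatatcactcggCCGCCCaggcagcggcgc

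The libraries held 12381931 to 18667383 estimated reads. The targeted gene LYPLA1 averaged 35.1 ± 4.11 TPM in shAPT1, 170 ± 0.995 TPM in APT1wt and 86.8 ± 6.14 TPM in control (SD, n = 3 each), in the direction of the labels. TPM, the unit of these levels, is a length-corrected share of a library, summed here over the transcripts of a gene. On summed reads LYPLA1 had a log2 fold change of -1.29 in shAPT1 (adjusted p = 2.0e-08, edgeR) and 0.60 in APT1wt (adjusted p = 1.15e-05). The rise in APT1wt was 1.52-fold on reads, smaller than in TPM. The mesenchymal markers VIM, CD44, MSN and AXL summed to 3179 to 4152 TPM, and the hormone receptor genes ESR1 and PGR stayed under 1 TPM in all 9 libraries. CD44 (log2 fold change -0.66), AXL (-0.33) and MSN (-0.19) fell in shAPT1, and MSN (-0.48), VIM (-0.25) and AXL (-0.21) in APT1wt (adjusted p of at most 0.0301, edgeR). In control ERBB2 averaged 29.9 TPM and EPCAM 10.1 TPM, and neither was called. CDH1, at 0.775 TPM in control, rose in shAPT1 (1.04, adjusted p = 0.0375) and APT1wt (1.12, adjusted p = 0.0271), with overlapping TPM. Fibroblast markers summed to 13.3 to 22.8 TPM in shAPT1, 20.2 to 24.7 in APT1wt and 17.9 to 20.7 in control, with DCN, LUM, PDGFRA and COL3A1 under 1 TPM throughout. Of the 4 fibroblast markers tested, PDGFRB (log2 fold change 1.39), COL1A2 (1.69) and COL1A1 (0.51) rose and FBLN1 fell (-1.14) in shAPT1, and PDGFRB (1.14) and COL1A1 (0.54) rose in APT1wt, with adjusted p of at most 0.00945. The 8 leukocyte markers summed to 280 to 322 TPM in shAPT1, 297 to 364 in APT1wt and 501 to 643 in control, of which PTPRC, CD3E, CD14, LYZ and ITGAM were under 1 TPM in every library. CD74 and HLA-DRA fell in both lines, while LCP1, the gene of an actin-bundling protein, averaged 41.8 ± 5.66 TPM in shAPT1, 61.9 ± 8.9 in APT1wt and 10.1 ± 0.687 in control and rose in both (1.94, adjusted p = 7.3e-09, and 2.56, adjusted p = 1.0e-09, edgeR). The 6 endothelial markers summed to 59.3 to 77.3 TPM in shAPT1, 102 to 106 in APT1wt and 41.3 to 50.7 in control, with VWF and CDH5 under 1 TPM throughout. Of the 4 endothelial markers tested, ESAM (0.44) and TIE1 (2.08) rose in shAPT1, and ESAM rose (1.23) and KDR fell (-0.55) in APT1wt, with adjusted p of at most 0.0362. The part of these cell markers in the results was not tested.

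Of the 71 genes, 40 had enough reads for the test: 10 MMP, 11 ADAM, 11 ADAMTS, 4 ADAMTSL and 4 TIMP genes. Of the other 31, ADAM2, ADAM7, ADAM30, ADAMTS10 and MMP26 had no read in any library, and 26 had between 1 and 62 estimated reads over all 9 libraries together. The highest of these was MMP23B, whose reads can be shared with its near-identical copy MMP23A. A mean of at least 1 TPM in some group was reached by 35 genes, of at least 10 TPM by 18, and of at least 100 TPM by TIMP1, TIMP2, MMP14, ADAM9, ADAM10 and ADAM15. In control the order began with TIMP1 at 222 ± 9.87 TPM, MMP14 at 201 ± 26.2 and TIMP2 at 187 ± 4.83, followed by ADAM9 at 133 ± 4.01, ADAM15 at 119 ± 3.85 and ADAM10 at 112 ± 12.2. The ranges of TIMP1 and MMP14, of MMP14 and TIMP2, and of ADAM15 and ADAM10 overlapped between libraries, and those of TIMP2 and ADAM9, and of ADAM9 and ADAM15, did not. MMP14 made up 84.5% of the summed TPM of the MMP genes in control.

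**Figure D1:**
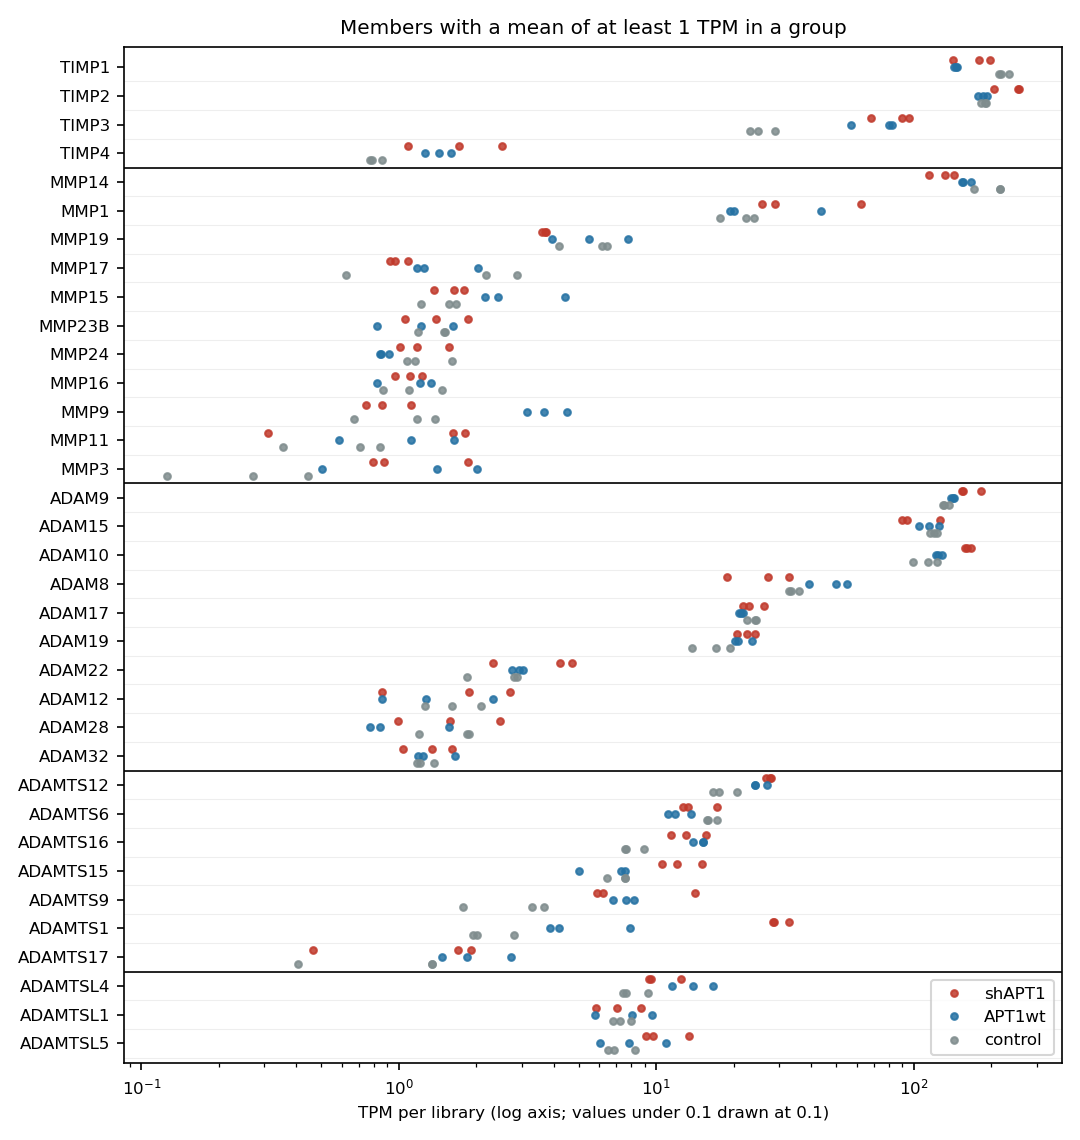
TPM of each gene with a group mean of at least 1 TPM, on a log axis, 1 point per library, with shAPT1 in red, APT1wt in blue and control in grey, grouped as TIMP, MMP, ADAM, ADAMTS and ADAMTSL genes. The 3 shAPT1 points of ADAMTS1, at 28.4 to 32.8 TPM, lie apart from the 3 control points at 1.94 to 2.81 TPM, and of the 35 genes plotted 19 had shAPT1 libraries apart from control, 19 had APT1wt libraries apart from control, and 25 had at least 1 of these. The same was not counted over all genes, so these counts do not show whether the set is unusual.

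The first comparison set shAPT1, the line made to reduce APT1, against control. Each condition was a single stable line, so an effect of the APT1 level and any other difference between the lines cannot be told apart. Of the 40 tested genes, 13 rose and 5 fell at an adjusted p under 0.05 (edgeR's quasi-likelihood test, Benjamini-Hochberg over all 15200 tested genes). That is 45% of the genes, beside 24.4% called among all tested genes, and 32.5% rose beside a background of 12.8%, while 12.5% fell beside 11.6%. The median log2 fold change was 0.049 over the 40 genes and -0.004 over all tested genes. No ADAMTS or ADAMTSL gene passed as lower and no MMP gene as higher. Without control replicate 2, 11 genes were called, 8 higher and 3 lower. In 17 of the 18 called genes the TPM of the shAPT1 and control libraries did not overlap, ADAM15 being the exception. The calls rest on the same group difference, so this count is no separate support. The share over all genes was not counted. A change of the RNA per cell and a change in the number of cells that make it cannot be told apart in these bulk libraries.

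The second comparison set APT1wt, the line made to overexpress APT1, against the same control, and the same limit holds. Again 18 of the 40 genes were called, 14 higher and 4 lower. The 45% stood beside 23.5% of all tested genes, the 35% that rose beside 11.8%, and the 10% that fell beside 11.7%. The median log2 fold change was 0.162 over the 40 genes and -0.004 over all tested genes. The groups did not overlap in TPM for 14 of the 18, the exceptions being ADAM10, ADAM28, ADAMTSL1 and MMP16. Here too the count is no separate support, and the share over all genes was not counted. A fit of these 6 libraries alone called 20 of the 40 genes and 4653 of all genes without a block, and 21 of the 40 and 5367 of all genes with the replicate number as a block, against 3567 of all genes in the fit of all 9 libraries. The genes called with that block and not in the fit of all 9 libraries were ADAMTS6 (log2 fold change -0.356, adjusted p = 0.000439), ADAM17 (-0.139, adjusted p = 0.0442), ADAM9 (0.109, adjusted p = 0.0464) and TIMP4 (0.834, adjusted p = 0.0495).

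The third comparison set shAPT1 directly against APT1wt, since both lines share the control libraries and calls against control cannot be compared with each other. Here 13 of the 40 genes were called, 5 higher and 8 lower in shAPT1. The 32.5% stood beside 25.2% of all tested genes, the 12.5% that were higher beside 12.8% and the 20% that were lower beside 12.4%. The groups did not overlap in TPM for 9 of the 13, the exceptions being ADAM22, ADAMTS16, ADAMTS17 and ADAMTSL4. As above, this count adds no separate support and has no share over all genes beside it. The median log2 fold change was 0.049, and 0.001 over all tested genes.

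**Figure D2:**
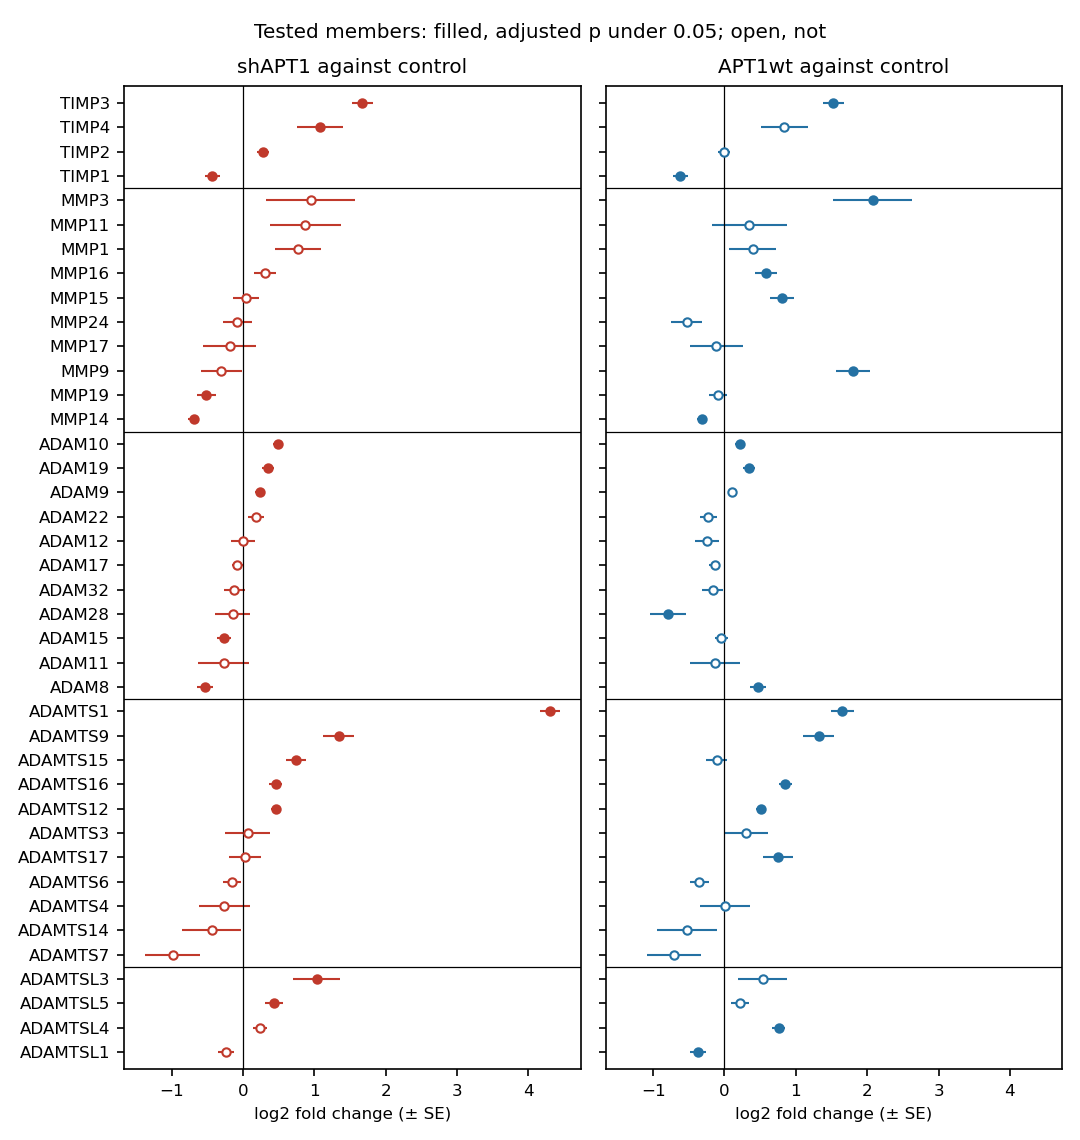
Log2 fold change with its standard error for the 40 tested genes, shAPT1 against control on the left and APT1wt against control on the right, from 3 libraries a group. Filled points passed an adjusted p of 0.05: ADAMTS1 stands at 4.30 in shAPT1 and 1.65 in APT1wt, TIMP3 at 1.67 and 1.53, and MMP9 at -0.30 (open) and 1.80.

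The inhibitors come first. TIMP3 (ENSG00000100234.11; chromosome 22, 32801701 to 32863043, plus strand, GRCh38) encodes the TIMP that stays bound to the matrix and also blocks ADAM17 and several ADAMTS enzymes. It had 68.2, 96.2 and 90.2 TPM in shAPT1, 57.1, 82.0 and 80.1 TPM in APT1wt, and 23.2, 28.8 and 24.9 TPM in control. Every library of both lines lay above every control library, and the lines overlapped. TIMP3 rose by 1.67 ± 0.15 on the log2 scale in shAPT1 (SE; adjusted p = 2.0e-06, edgeR) and by 1.53 ± 0.15 in APT1wt (adjusted p = 4.7e-06). The difference between the lines was 0.14 ± 0.14 (adjusted p = 0.50). Its TPM came entirely from the transcript ENST00000266085.6.

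TIMP1 (ENSG00000102265.11; chromosome X, 47582313 to 47586789, plus strand), an inhibitor of most secreted MMPs, moved the other way. It had 141, 179 and 198 TPM in shAPT1, 143, 148 and 145 TPM in APT1wt, and 218, 233 and 215 TPM in control, so that neither line overlapped control. TIMP1 fell by 0.43 on the log2 scale in shAPT1 (SE 0.10, adjusted p = 0.0066, edgeR) and by 0.62 in APT1wt (SE 0.10, adjusted p = 5.9e-04). Its neighbours on chromosome X were lower too. The tested genes nearest to it, 50 on either side, had a shared shift of -0.303 in shAPT1 and -0.509 in APT1wt on the log2 scale. This shift is the median deviation of these genes in each library, averaged per group and compared with control. With that shared shift removed from each library, TIMP1 stood at -0.13 in shAPT1 (adjusted p = 0.33) and -0.11 in APT1wt (adjusted p = 0.46), and neither call held. What moves the neighbourhood was not tested.

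TIMP2, which inhibits MMP2 and takes part with MMP14 in its activation, had 205, 253 and 257 TPM in shAPT1, 177, 192 and 185 TPM in APT1wt, and 182, 191 and 188 TPM in control. It rose by 0.28 ± 0.08 on the log2 scale in shAPT1 (adjusted p = 0.028, edgeR), and in APT1wt the change was -0.01 ± 0.08 (adjusted p = 0.94). The call in shAPT1 was lost when either shAPT1 replicate 2 or 3 or any 1 control library was left out, with adjusted p of 0.0645 to 0.136, and in the fit of both groups alone. TIMP2 was also higher in shAPT1 than in APT1wt (0.288, adjusted p = 0.022, edgeR), a call lost in 5 of 20 other settings. TIMP4, at a low level, rose in shAPT1 (1.08 ± 0.33, adjusted p = 0.026), with 1.09, 1.71 and 2.52 TPM in shAPT1, 1.43, 1.26 and 1.59 TPM in APT1wt and 0.774, 0.787 and 0.861 TPM in control. That call did not hold with DESeq2, with an offset for transcript length (adjusted p = 0.0542), in the deposited table (0.0698) or without any 1 of 5 libraries, shAPT1 replicates 2 and 3 and the 3 controls (0.0616 to 0.115). In the fit of all 9 libraries TIMP4 was not called in APT1wt or between the lines. In the blocked fit of APT1wt and control alone it rose in APT1wt (0.834, adjusted p = 0.0495, edgeR). Summed over the 4 genes, TIMP mRNA stood at 498 ± 71.6 TPM in shAPT1, 405 ± 23.3 in APT1wt and 435 ± 16.4 in control.

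**Figure D3:**
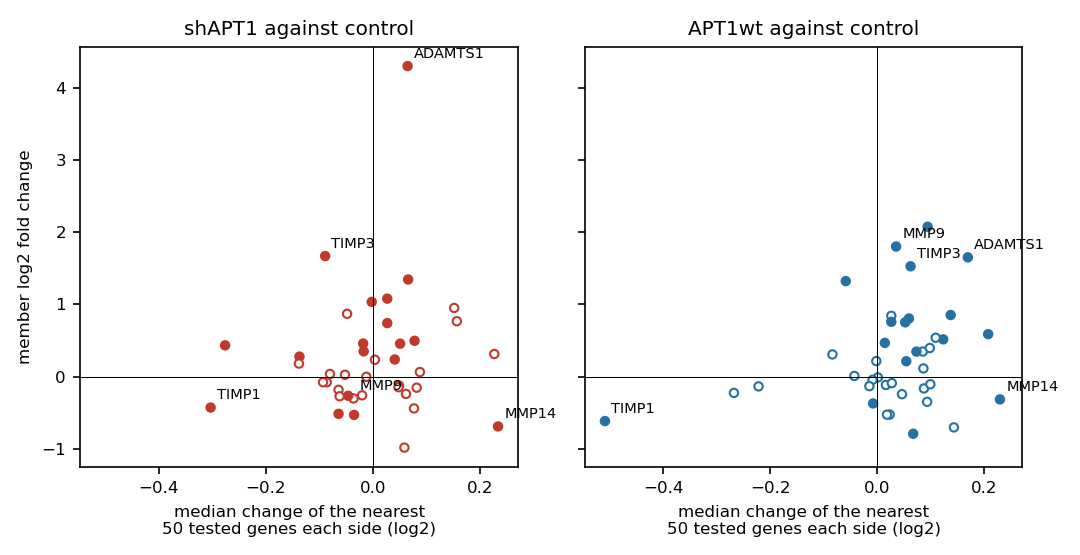
Log2 fold change of each tested gene with a position (vertical axis) against the shift of its 50 tested neighbours either way along the chromosome (horizontal axis), shAPT1 against control on the left and APT1wt against control on the right. The shift is the neighbours' median log2 deviation in each library, averaged per group and compared with control. Filled points passed an adjusted p of 0.05. TIMP1 lies at the left edge, with neighbours at -0.303 and -0.509, MMP14 at the right edge, with neighbours at 0.234 and 0.229, and ADAMTS1 is the highest point on the left, with neighbours at 0.065 in shAPT1 and 0.169 in APT1wt.

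Among the membrane-type MMPs, MMP14 (ENSG00000157227.12; chromosome 14, 22836557 to 22849027, plus strand) was the main MMP mRNA of every group. The enzyme, MT1-MMP, cuts collagen at the cell surface and activates pro-MMP2. It had 114, 132 and 143 TPM in shAPT1, 156, 167 and 154 TPM in APT1wt, and 171, 216 and 216 TPM in control, 3 ranges that did not overlap. MMP14 fell by 0.69 on the log2 scale in shAPT1 (SE 0.07, adjusted p = 1.5e-05, edgeR) and by 0.32 in APT1wt (SE 0.07, adjusted p = 0.0066), and was lower in shAPT1 than in APT1wt by -0.38 (adjusted p = 0.0022). Here the neighbouring genes leaned the other way, by 0.234 in shAPT1 and 0.229 in APT1wt, and with that removed MMP14 stood at -0.93 and -0.55. Its share of summed MMP TPM was 71.0% in shAPT1, 76.7% in APT1wt and 84.5% in control. The sum itself was 183 ± 9.74 TPM in shAPT1, 207 ± 13.2 in APT1wt and 238 ± 24.9 in control.

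Transcript shares of MMP14 were described without a test. The full-length coding transcript ENST00000311852.10 took 39.4% ± 4.67 of MMP14 TPM in shAPT1, 38.5% ± 0.61 in APT1wt and 39.4% ± 1.41 in control. A transcript annotated as processed, ENST00000548162.1, took 48.1% ± 2.91, 50.5% ± 0.18 and 47.2% ± 2.62 in that order.

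MMP15, another membrane-type MMP, had 1.63, 1.37 and 1.79 TPM in shAPT1, 2.43, 4.44 and 2.17 TPM in APT1wt, and 1.22, 1.56 and 1.66 TPM in control, and the APT1wt libraries lay above all others. MMP15 rose by 0.80 ± 0.17 on the log2 scale in APT1wt (adjusted p = 0.0036, edgeR), stood at 0.04 ± 0.18 in shAPT1 (adjusted p = 0.91), and the direct difference of shAPT1 from APT1wt was -0.77 ± 0.17 (adjusted p = 0.0040). MMP16 passed in APT1wt on summed reads (0.59 ± 0.15, adjusted p = 0.013) while its TPM did not differ, at 1.12 ± 0.266 in APT1wt and 1.14 ± 0.301 in control. With an offset for transcript length the change was 0.01 (adjusted p = 0.99), 1 of 4 among 21 other settings in which the call was lost, and in the deposited table it was -0.007 (adjusted p = 0.989). MMP17 and MMP24 did not pass in any comparison.

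MMP9 (ENSG00000100985.7; chromosome 20, 46008908 to 46016561, plus strand) encodes gelatinase B, which cuts denatured collagen and basement membrane collagen. It had 0.743, 0.864 and 1.11 TPM in shAPT1, 3.16, 4.51 and 3.67 TPM in APT1wt, and 0.672, 1.18 and 1.38 TPM in control. The APT1wt libraries lay above all others, and shAPT1 and control overlapped. MMP9 rose in APT1wt 3.48-fold (log2 fold change 1.80 ± 0.24, adjusted p = 1.1e-04, edgeR), and in shAPT1 the change was -0.30 ± 0.29 (adjusted p = 0.49). The direct difference was 4.30-fold, lower in shAPT1 (SE 0.25 on the log2 scale, adjusted p = 3.3e-05). The other gelatinase gene, MMP2, had too few reads for the test.

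The collagenase gene MMP1, chosen for naming after its values were seen, had 62.1, 25.7 and 28.9 TPM in shAPT1, 43.7, 19.3 and 20.1 TPM in APT1wt, and 24.1, 17.6 and 22.3 TPM in control. Replicate 1 was the highest in each group. The log2 fold change was 0.77 ± 0.32 in shAPT1 (adjusted p = 0.10, edgeR) and 0.40 ± 0.33 in APT1wt (adjusted p = 0.43), and 0.29 in shAPT1 without its replicate 1 and -0.11 in APT1wt without its replicate 1. MMP3, stromelysin-1, lies in the same cluster of MMP genes on chromosome 11. It had 1.86, 0.875 and 0.795 TPM in shAPT1, 2.01, 0.504 and 1.41 TPM in APT1wt, and 0.272, 0.126 and 0.443 TPM in control. MMP3 rose in APT1wt (2.08 ± 0.55, adjusted p = 0.014) and stood at 0.95 ± 0.62 in shAPT1 (adjusted p = 0.30), at levels so low that leaving out APT1wt replicate 1, control replicate 1 or control replicate 2 ended the call (adjusted p of 0.0619 to 0.0789). In APT1wt against control MMP3 had a result in only 18 of the 21 other settings.

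MMP19, a secreted MMP of broad specificity, had 3.60, 3.71 and 3.73 TPM in shAPT1, 5.50, 7.74 and 3.93 TPM in APT1wt, and 6.45, 6.13 and 4.17 TPM in control. It fell in shAPT1 by 0.52 on the log2 scale (SE 0.14, adjusted p = 0.012, edgeR), a call that did not hold under the length offset (adjusted p = 0.0902), in the deposited table (0.0942) or when control replicate 2 was left out (0.0513). It was also lower in shAPT1 than in APT1wt (-0.42, adjusted p = 0.031), a call lost in 12 of 20 other settings. Of the collagenases, gelatinases, stromelysins, matrilysins and metalloelastase listed, 11 genes, 4 were tested: MMP1, MMP3, MMP9 and MMP11, of which MMP11 did not pass.

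**Figure D4:**
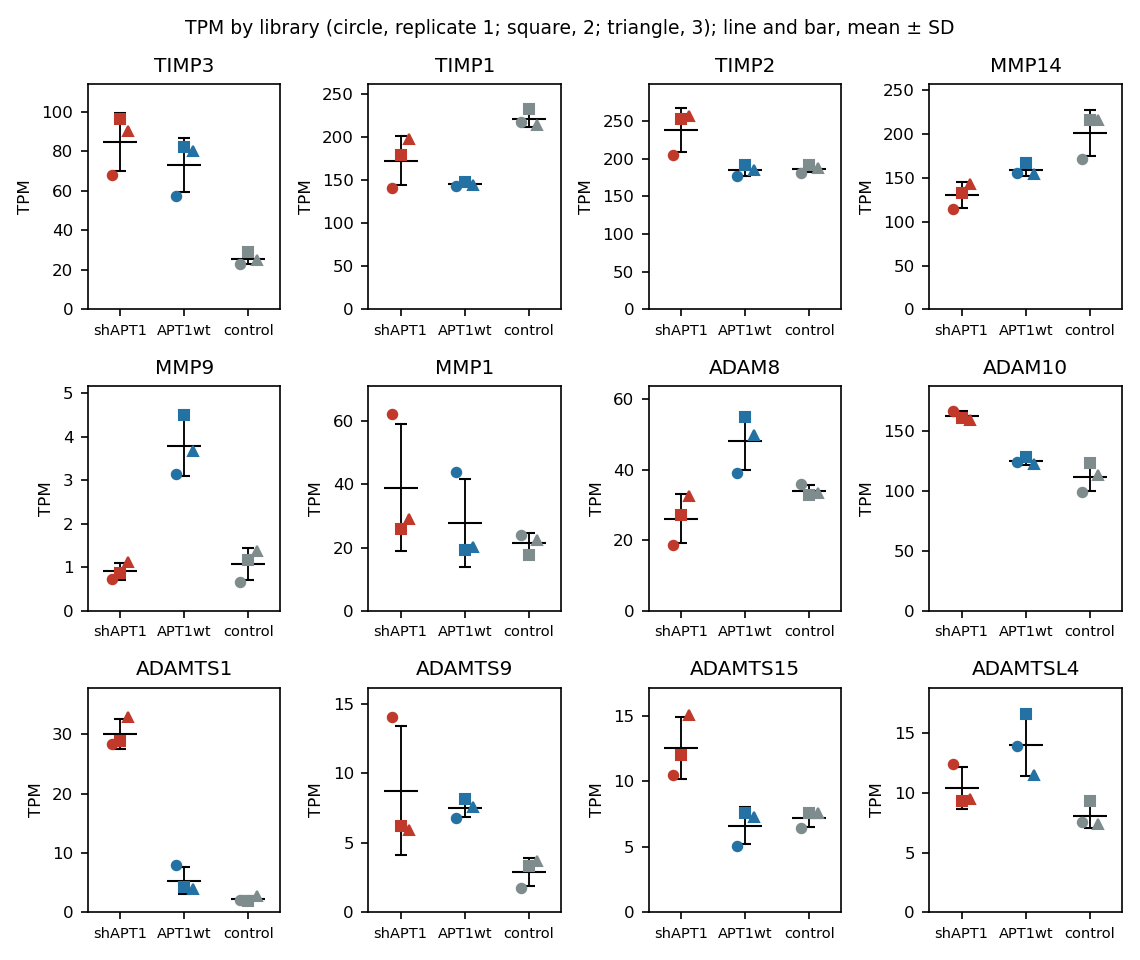
TPM by library for 12 genes in shAPT1 (left), APT1wt (middle) and control (right), with replicate 1 as a circle, 2 as a square and 3 as a triangle, and the group mean with its SD as a line and bar, each vertical axis starting at 0. TIMP3 is high in both lines, ADAMTS1 averages 30.0 TPM in shAPT1 against 2.25 TPM in control, MMP9 is high in APT1wt, ADAM8 is lowest in shAPT1 and highest in APT1wt, and MMP1 has a high replicate 1 in both lines.

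Of the ADAMs with a working catalytic site, 8 of 12 were tested. In shAPT1, ADAM9, ADAM10 and ADAM19 rose and ADAM8 and ADAM15 fell. In APT1wt, ADAM8, ADAM10 and ADAM19 rose and ADAM28 fell. ADAM10 (ENSG00000137845.14; chromosome 15, 58588807 to 58749978, minus strand) encodes the sheddase that makes the first cut of ligand-bound Notch. It had 167, 160 and 158 TPM in shAPT1, 124, 128 and 122 TPM in APT1wt, and 98.9, 123 and 113 TPM in control. The shAPT1 libraries lay above all others. ADAM10 rose 1.41-fold in shAPT1 (log2 SE 0.07, adjusted p = 1.6e-04, edgeR) and was higher there than in APT1wt (0.28 ± 0.07, adjusted p = 0.0086). In APT1wt its TPM overlapped that of control, and the rise of 0.21 ± 0.07 (adjusted p = 0.042) was lost in 10 of 21 other settings. A transcript annotated for nonsense-mediated decay, ENST00000396136.6, took 43.4% ± 2.02 of ADAM10 TPM in shAPT1, 45.2% ± 0.63 in APT1wt and 42.4% ± 0.82 in control.

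ADAM17, the sheddase of TNF and of EGF receptor ligands, did not pass in any comparison in the fit of all 9 libraries. It had 26.1, 22.9 and 21.7 TPM in shAPT1, 21.4, 21.7 and 20.9 TPM in APT1wt, and 22.5, 24.2 and 24.3 TPM in control. The log2 fold change was -0.08 ± 0.07 in shAPT1 (adjusted p = 0.48, edgeR) and -0.14 ± 0.07 in APT1wt (adjusted p = 0.20). Its exons overlap those of IAH1 on the other strand, which averaged 43.6 TPM in shAPT1, 38.2 in APT1wt and 45.4 in control. Whether the counting used strand is not given in the sources used here, so reads of such pairs cannot be assigned with certainty. The same holds for MMP24 and MMP24OS, MMP11 and CHCHD10, and ADAM19 and CYFIP2, and for MMP19, whose partner TMEM198B averaged 5.47 TPM in shAPT1, 4.40 in APT1wt and 6.57 in control. It also holds for ADAM10, ADAMTS9 and ADAMTSL4, with partners at 5.23 TPM or less, while the opposite-strand partners of MMP9, MMP1, MMP3 and TIMP4 averaged under 0.2 TPM in every group.

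ADAM8, a sheddase best known from leukocytes, was the ADAM gene whose calls against control went in opposite directions. It had 18.8, 27.0 and 32.6 TPM in shAPT1, 39.1, 54.9 and 49.9 TPM in APT1wt, and 35.9, 32.9 and 33.3 TPM in control, with no overlap between groups. ADAM8 fell by 0.53 on the log2 scale in shAPT1 (SE 0.11, adjusted p = 0.0033, edgeR) and rose by 0.47 in APT1wt (SE 0.11, adjusted p = 0.0068). The direct difference of shAPT1 from APT1wt was -1.0 ± 0.11 (adjusted p = 2.1e-05). Both calls against control ended with the length offset, at -0.44 (adjusted p = 0.096) and 0.50 (adjusted p = 0.059), and in the deposited table (0.0811 and 0.0728), and the direct one held. Of the leukocyte markers, CD74 and HLA-DRA were lower and LCP1 higher in both lines than in control, and their part in the change of ADAM8 was not tested.

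ADAM9, which cuts membrane-bound growth factors, had 182, 154 and 155 TPM in shAPT1, 143, 139 and 142 TPM in APT1wt, and 130, 137 and 131 TPM in control. It rose in shAPT1 by 0.24 (SE 0.07, adjusted p = 0.018, edgeR), and the call was lost without control replicate 2 (0.0551) or control replicate 3 (0.0708). ADAM19 had 22.4, 20.5 and 24.2 TPM in shAPT1, 20.2, 23.5 and 20.8 TPM in APT1wt, and 13.8, 19.4 and 17.0 TPM in control. It rose alike in both lines, by 0.35 in shAPT1 (adjusted p = 0.0081) and 0.34 in APT1wt (adjusted p = 0.0093), with a difference between the lines of 0.00 ± 0.08. ADAM15 fell in shAPT1 at the edge of the threshold (-0.27, adjusted p = 0.049), a call lost in 13 of 20 other settings.

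ADAM28, at 1.68 ± 0.741 TPM in shAPT1, 1.06 ± 0.44 in APT1wt and 1.64 ± 0.381 in control, fell in APT1wt (-0.79 ± 0.26, adjusted p = 0.036, edgeR), a call lost in 9 of 21 other settings and without any 1 of 5 libraries, with adjusted p of 0.0565 to 0.133. Of the 8 ADAMs without a working catalytic site, ADAM11, ADAM22 and ADAM32 were tested. ADAM22, a neuronal receptor for LGI proteins, was the only one called, higher in shAPT1 than in APT1wt (0.41, adjusted p = 0.017), and that call ended in 6 of 20 other settings. Summed over the ADAM genes, TPM averaged 511 ± 21.8 in shAPT1, 479 ± 20.5 in APT1wt and 447 ± 22.7 in control, led by ADAM9 in each group.

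The largest change in the set was that of ADAMTS1 (ENSG00000154734.14; chromosome 21, 26835747 to 26845409, minus strand). Its product cuts the proteoglycans versican and aggrecan. ADAMTS1 had 28.4, 28.8 and 32.8 TPM in shAPT1, 7.92, 4.20 and 3.88 TPM in APT1wt, and 2.01, 1.94 and 2.81 TPM in control. The 3 groups did not overlap, and both lines were higher than control. It rose 19.7-fold in shAPT1 (log2 fold change 4.30 ± 0.14, adjusted p = 2.5e-10, edgeR) and 3.14-fold in APT1wt (1.65 ± 0.16, adjusted p = 6.0e-06), and the lines differed by 2.65 ± 0.12 (adjusted p = 3.2e-09). With an offset for transcript length the log2 fold changes were 3.68 in shAPT1 and 1.25 in APT1wt, both still past the threshold. Its full-length coding transcript ENST00000284984.7 took 49.1% ± 2.39 of ADAMTS1 TPM in shAPT1, 41.2% ± 8.20 in APT1wt and 31.1% ± 14.6 in control, where the reads were few.

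Of the 7 ADAMTS proteoglycanases, 4 were tested, and in shAPT1 ADAMTS1, ADAMTS9 and ADAMTS15 rose while ADAMTS4, at under 0.2 TPM, did not pass. ADAMTS9, which cuts versican and is also needed in the early secretory pathway, had 14.1, 6.21 and 5.89 TPM in shAPT1, 6.79, 8.16 and 7.6 TPM in APT1wt, and 1.78, 3.30 and 3.67 TPM in control. It rose in both lines, by 1.34 ± 0.22 in shAPT1 (adjusted p = 4.8e-04, edgeR) and 1.32 ± 0.22 in APT1wt (adjusted p = 5.6e-04). Replicate 1 stood above the other shAPT1 libraries, and without it the change was 1.06. ADAMTS15 had 10.5, 12.0 and 15.1 TPM in shAPT1, 5.03, 7.55 and 7.31 TPM in APT1wt, and 6.45, 7.56 and 7.54 TPM in control. ADAMTS15 rose in shAPT1 (0.74 ± 0.14, adjusted p = 0.0018), stood at -0.11 ± 0.15 in APT1wt (adjusted p = 0.66), and differed between the lines by 0.85 ± 0.14 (adjusted p = 6.6e-04).

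ADAMTS16, an enzyme studied for fibronectin cleavage and blood pressure in rats, had 11.4, 13 and 15.6 TPM in shAPT1, 15.2, 15.2 and 13.9 TPM in APT1wt, and 7.62, 8.97 and 7.55 TPM in control. It rose by 0.46 ± 0.09 in shAPT1 (adjusted p = 0.0023, edgeR) and by 0.85 ± 0.09 in APT1wt (adjusted p = 1.2e-05). The direct difference of -0.40 ± 0.09 (adjusted p = 0.0043) ended in 3 of 20 other settings, among them the length offset (-0.22, adjusted p = 0.22). ADAMTS12, which cuts cartilage oligomeric matrix protein and whose promoter holds the AP-1 motif printed above, had 28.0, 26.7 and 27.6 TPM in shAPT1, 27.0, 24.2 and 24.1 TPM in APT1wt, and 17.5, 20.6 and 16.6 TPM in control. It rose by 0.46 ± 0.07 in shAPT1 (adjusted p = 3.2e-04) and 0.52 ± 0.07 in APT1wt (adjusted p = 1.1e-04), and the lines did not differ beyond their spread (-0.06 ± 0.07). ADAMTS17 was called higher in APT1wt (0.75 ± 0.22, adjusted p = 0.021), with 1.90, 0.466 and 1.70 TPM in shAPT1, 2.72, 1.47 and 1.84 TPM in APT1wt, and 0.406, 1.35 and 1.35 TPM in control. That call was lost in 7 of 21 other settings, and the direct difference of -0.73 ± 0.21 (adjusted p = 0.021) in 7 of 20.

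Neither tested procollagen N-propeptidase gene, ADAMTS3 or ADAMTS14, passed, and both were under 1 TPM on average. Summed over the ADAMTS genes, TPM averaged 109 ± 6.98 in shAPT1, 74.8 ± 4.09 in APT1wt and 57.6 ± 2.92 in control, with no overlap between groups. ADAMTS1 led the sum in shAPT1 with 27.5% and ADAMTS12 in APT1wt with 33.6% and in control with 31.6%.

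Among the ADAMTS-like genes, ADAMTSL4, which binds fibrillin microfibrils and is mutated in human ectopia lentis, had 12.4, 9.32 and 9.51 TPM in shAPT1, 13.9, 16.7 and 11.5 TPM in APT1wt, and 7.61, 9.32 and 7.44 TPM in control. It rose in APT1wt (0.76 ± 0.10, adjusted p = 6.3e-05, edgeR), stood at 0.23 ± 0.10 in shAPT1 (adjusted p = 0.11), and was lower in shAPT1 than in APT1wt by -0.53 ± 0.09 (adjusted p = 0.0010). ADAMTSL5 rose in shAPT1 (0.43 ± 0.12, adjusted p = 0.018), with 9.70, 9.13 and 13.4 TPM in shAPT1 and 6.48, 6.85 and 8.29 TPM in control, a call lost under the length offset (0.117), in the deposited table (0.119) and without shAPT1 replicate 3, control replicate 1 or control replicate 2 (0.0551 to 0.0606). ADAMTSL3 rose in shAPT1 at a low level (1.03 ± 0.33, adjusted p = 0.033), with 1.1, 0.717 and 1.17 TPM in shAPT1 and 0.271, 0.544 and 0.515 TPM in control, and that call was lost in 9 of 20 other settings. ADAMTSL1 was called lower in APT1wt on summed reads (-0.37, adjusted p = 0.026), yet its TPM was 7.79 ± 1.93 in APT1wt and 7.35 ± 0.605 in control, and the change was 0.09 with the length offset (adjusted p = 0.80). Leaving out APT1wt replicate 2 or 3 or control replicate 1 or 3 also ended that call (0.077 to 0.0926).

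Over the 3 comparisons, calls that held in every setting tried were 9 of 18 in shAPT1 against control, 10 of 18 in APT1wt against control and 8 of 13 in shAPT1 against APT1wt. In shAPT1 these were TIMP3, MMP14, ADAM10, ADAM19, ADAMTS1, ADAMTS9, ADAMTS12, ADAMTS15 and ADAMTS16. In APT1wt they were TIMP3, MMP9, MMP14, MMP15, ADAM19, ADAMTS1, ADAMTS9, ADAMTS12, ADAMTS16 and ADAMTSL4. Between the lines they were MMP9, MMP14, MMP15, ADAM8, ADAM10, ADAMTS1, ADAMTS15 and ADAMTSL4.

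Genes that activate, carry or inhibit these enzymes but lie outside the families were followed as a list of 19, of which 18 were tested. In shAPT1, 4 rose and none fell, and in APT1wt 4 rose and 1 fell, with medians of 0.005 and 0.116. These counts are near the 24.4% and 23.5% called among all tested genes. TSPAN15, a tetraspanin that escorts ADAM10 to the cell surface, averaged 8.98 ± 1.63 TPM in shAPT1, 8.64 ± 0.599 in APT1wt and 5.36 ± 1.5 in control, and rose in both (0.63, adjusted p = 0.012, and 0.80, adjusted p = 0.0027, edgeR). TSPAN5, of the same group of tetraspanins, also rose in both (0.23, adjusted p = 0.019, and 0.30, adjusted p = 0.0041). LRP1, an endocytic receptor that clears MMP9 and TIMP complexes, rose by 0.40 in shAPT1 (adjusted p = 0.023) and 1.09 in APT1wt (adjusted p = 1.1e-05). TFPI2, a serine protease inhibitor of the matrix, rose by 0.63 in shAPT1 (adjusted p = 0.0029) and fell by 0.45 in APT1wt (adjusted p = 0.029), a direct difference of 1.08 (adjusted p = 5.4e-05). RECK, a membrane-bound MMP inhibitor chosen after its values were seen, stood at -0.09 and 0.01 and did not pass.

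Of 12 matrix substrates of ADAMTS and partners of ADAMTSL, 6 were tested. In shAPT1, 3 rose and none fell, and in APT1wt 2 rose and 1 fell, beside 24.4% and 23.5% of all tested genes called in either direction. VCAN, the gene of versican, averaged 2.29 ± 0.805 TPM in shAPT1, 0.747 ± 0.213 in APT1wt and 0.667 ± 0.447 in control, and rose in shAPT1 (1.82 ± 0.30, adjusted p = 6.0e-04, edgeR). FBN1, which encodes fibrillin-1, rose by 1.17 in shAPT1 (adjusted p = 3.2e-07) and 0.61 in APT1wt (adjusted p = 1.6e-04). B3GLCT, the glucosyltransferase of thrombospondin repeats such as those of ADAMTS proteins, rose by 0.54 in shAPT1 (adjusted p = 6.8e-04) and 0.88 in APT1wt (adjusted p = 9.1e-06). LTBP1, a carrier of latent TGF-beta, fell by 0.92 in APT1wt (adjusted p = 1.0e-04). Of 3 tested genes among the other metzincin proteases, PAPPA, which cuts IGF-binding proteins, rose in shAPT1 (0.96, adjusted p = 0.0021) and LMLN fell in APT1wt (-0.44, adjusted p = 8.9e-04). PAPPA was at a low level, with 0.627 TPM in shAPT1 and 0.393 in control on average, and its libraries overlapped.

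Of 24 membrane proteins known to be shed by ADAM10 or ADAM17, 22 were tested. In shAPT1, 4 rose and 9 fell (median -0.100), and in APT1wt 2 rose and 8 fell (median -0.268). Among all tested genes, 12.8% rose and 11.6% fell in shAPT1, and 11.8% rose and 11.7% fell in APT1wt. IL6R, the interleukin-6 receptor gene, fell in shAPT1 (-1.58 ± 0.20, adjusted p = 5.3e-05, edgeR), with 1.16 ± 0.459 TPM in shAPT1 and 3.23 ± 0.536 in control. CDH2 (1.47, adjusted p = 0.0042) and AREG (1.13, adjusted p = 5.0e-06) rose and TNFRSF1B (-1.34, adjusted p = 1.5e-06) fell in shAPT1. In APT1wt, TNFRSF1B (-1.65, adjusted p = 3.1e-07), EREG (-1.37, adjusted p = 1.1e-04) and EGF (-1.15, adjusted p = 0.030) fell and NRG1 rose (0.81, adjusted p = 5.0e-06). NRG1 also rose in shAPT1 (0.99, adjusted p = 7.4e-07, edgeR), and its difference between the lines did not pass (0.184, adjusted p = 0.0897). The levels of CDH2 and EGF were low. CDH2 averaged 0.978 TPM in shAPT1 and 0.452 in control. EGF averaged 0.417 TPM in APT1wt and 0.927 in control, with overlap between libraries. AREG, an EGF receptor ligand released by ADAM17, averaged 39.1 ± 2.77 TPM in shAPT1, 10.0 ± 0.562 in APT1wt and 17.0 ± 1.47 in control, while ADAM17 itself did not pass in the fit of all 9 libraries and fell by 0.139 in APT1wt in the blocked fit given above (adjusted p = 0.0442). These are mRNA levels, and shedding was not measured.

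Of 14 AP-1, ETS and RUNX factors known to act on MMP promoters, none rose and 5 fell in shAPT1 (median 0.050), and in APT1wt 3 rose and 1 fell (median -0.075). Among all tested genes 12.8% rose and 11.6% fell in shAPT1, and 11.8% and 11.7% in APT1wt. In shAPT1, FOSL1 (-0.64, adjusted p = 1.3e-05, edgeR), ELK3 (-0.57, adjusted p = 1.0e-05), FOSL2 (-0.56, adjusted p = 1.0e-04) and ETV4 (-0.37, adjusted p = 0.0072) fell. FOSL1, an AP-1 subunit, averaged 397 ± 37.0 TPM in shAPT1, 560 ± 15.0 in APT1wt and 593 ± 18.9 in control. In APT1wt, RUNX2 (0.60, adjusted p = 2.4e-05), ETS2 (0.35, adjusted p = 0.0010) and ETS1 (0.33, adjusted p = 0.0035) rose and FOSL2 fell (-0.22, adjusted p = 0.046). Between the lines, 8 of the 14 were lower in shAPT1 and 1 higher, beside 12.4% and 12.8% of all tested genes.

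The tested genes whose log2(TPM + 0.1) profile over the 9 libraries was most like those of ADAMTS1, MMP9 and TIMP3 were listed as a description, since the libraries form 3 groups and all values of a library share its depth. For ADAMTS1 they were P3H2, HAS2 and RTKN2 (Pearson's r of 0.985, 0.983 and 0.977). For MMP9 they were ENG, PTTG1IP and SUMO3 (0.993, 0.985 and 0.981), and for TIMP3 H1F0 and CPPED1 were foremost (0.987 and 0.980). Within the set, ADAM10 was most like ADAMTS1 (0.924), MMP15 most like MMP9 (0.880) and ADAMTS16 most like TIMP3 (0.915), over the same 9 libraries.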

How the data were processed

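RNA of 9 libraries was measured, and the authors quantified reads with Salmon on build GRCh38.p10, checked them with FastQC and used DESeq2, per the submitters' processing notes, without versions. The deposited Salmon files hold estimated counts (expected counts), TPM and effective lengths for 199324 transcripts. A deposited table per gene gives a signal that the authors scaled in a way not stated, and served only as an alternative. Depth was 12381931 to 18667383 estimated reads per library, which limits precision for genes under about 1 TPM.

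Members and gene lists were chosen with earlier results of these data known. The estimated counts were summed per gene and rounded, kept by filterByExpr, scaled by TMM and fitted over all 9 libraries with edgeR 4.0.16 (limma 3.58.1, R 4.3.3), with Benjamini-Hochberg adjustment over 15200 genes. With 3 libraries against 3, the smallest p of an exact permutation test is 0.1. TPM was summed per gene for levels. Tables were made in Python 3.11.15 with pandas 2.3.3 and numpy 2.4.6, plots with matplotlib 3.10.9, and the test was tried on simulated data. Positions came from GENCODE 29 for 15142 tested genes. RefSeq promoters matched 44 genes by symbol.

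Replicate numbers of APT1wt and control went together (correlations of deviations 0.290, 0.157 and 0.165 over 9969 genes), so their blocked fit is given where it changes a call. Always named were ADAMTS1, MMP9, TIMP3, MMP14, TIMP1, TIMP2, ADAM10 and ADAM17. Called genes with a mean of at least 1 TPM were named by size, 10 per comparison with control and 6 between the lines, with called genes below that level marked as low, up to 4 per outside list, the 5 highest in control, and the 3 genes most like ADAMTS1, MMP9 and TIMP3, of which 1 is not reported here, nor is 1 leukocyte marker. ADAM19, ADAM22, ADAMTS12, ADAMTSL1, ADAMTSL5, MMP1, MMP16 and other genes outside this rule were picked with their values known. The settings tried besides were RLE scaling, library totals, DESeq2 1.42.0, limma-voom, no filter, at least 20 reads in 3 libraries, a length offset, the deposited table on log2(value + 1), the groups compared alone, a replicate block, removal of the shift of 50 neighbouring genes each side, and leaving out each library. The block in a fit of APT1wt and control alone was added after seeing the data.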

Additional observations from a re-analysis of the deposited data

How the results depend on the processing

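All genes called in shAPT1 against control numbered 3711, with 2307 under the transcript length offset, 2326 in the deposited table and 2616 to 4096 when each library was left out in turn. In APT1wt against control they numbered 3567, with 2228 under the length offset, 2237 in the deposited table, 2369 with neighbouring genes removed, 4653 in a fit of both groups alone, 5367 in that fit with the replicate block, and 2298 (without APT1wt replicate 3) to 4824 with a library left out. In shAPT1 against APT1wt they numbered 3833, with 2374, 2366 and 2573 to 4104 in the same order, and library totals alone split the calls 2632 higher to 1330 lower, against 1942 to 1891. Members called with a library left out were 11 (8 higher and 3 lower, without control replicate 2) to 18, 14 to 21 and 9 to 14 in the 3 comparisons, against 18, 18 and 13. With the replicate block over all 9 libraries the counts were 19, 19 and 13 members and 3757, 3625 and 3871 genes. The deviations of shAPT1 and control by replicate number had correlations of -0.096, -0.042 and -0.056, and those of shAPT1 and APT1wt 0.188, 0.105 and -0.085. Neither set was positive for every replicate number. The labels do not say what the number marks, and whether these samples share more than a number was not tested. Under that block MMP1 passed in shAPT1 (0.70, adjusted p = 0.0039). Over all other settings MMP1 passed in 4 of 20 in shAPT1, 1 of 21 in APT1wt and 2 of 20 between the lines. Those 2 were no filter (adjusted p = 0.00149, edgeR) and leaving out APT1wt replicate 1 (0.0421).

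No called change turned its direction except ADAMTSL1 in APT1wt (0.087 under the length offset, 0.073 in the deposited table) and MMP16 in APT1wt (-0.007 in the deposited table). Changes that had not passed turned for ADAM17 with neighbouring genes removed (0.013 in shAPT1, 0.085 in APT1wt, -0.071 between the lines) and with a library left out (-0.014, without shAPT1 replicate 1, to 0.132 between the lines), for TIMP2 in APT1wt (0.005 with no filter, and -0.029 to 0.019, without APT1wt replicate 1), for TIMP1 between the lines (-0.023 with neighbouring genes removed), for TIMP3 between the lines (-0.008, without APT1wt replicate 1, to 0.291), and for MMP1 (-0.109, without APT1wt replicate 1, to 0.594 in APT1wt, and -0.103, without shAPT1 replicate 1, to 0.875 between the lines). The cause of these changes was not tested.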
